A study of Mus musculus with 6 samples.

Results

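Ribosome biogenesis factors are the proteins that make ribosomes without staying in them. Here 45 of their genes were followed by symbol in RNA sequencing libraries from 4T1 cells, an established line from a mammary tumour of a Balb/c mouse. All 45 were found among the 13405 genes listed for each library, and all 45 passed the filter on low values (a mean of at least 10 over the libraries), as did 12149 genes in all. The genes were grouped by role: 4 RNA polymerase I subunits, 4 proteins of box C/D and U3 snoRNPs, 3 proteins of box H/ACA snoRNPs, 6 abundant nucleolar proteins and regulators, 15 factors of the small subunit processome and 40S assembly, and 13 factors of 60S assembly.

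Ribosomes are built in the nucleolus. RNA polymerase I transcribes the ribosomal RNA precursor, small nucleolar RNPs (snoRNPs) guide the chemical modification of its bases and riboses, and a large processome on the nascent transcript folds and cuts it. Separate sets of assembly factors then mature the small (40S) and the large (60S) subunit and escort them to the cytoplasm, and in cancer cells many of these genes are known as targets of the transcription factor MYC.

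There were 2 groups of 3 libraries each: 4T1 cells labelled vector control and 4T1 cells labelled ATM KO, in which the gene of the ATM kinase, a sensor of DNA breaks, was knocked out. The labels name no vector, guide or clone, and nothing in them tells whether replicates were separate cultures. P-values here therefore measure only how far these libraries spread, which may be technical. Values are normalized counts: reads per gene divided by 1 factor per library by the authors. Between 22494919 and 32341508 reads per library stood behind them.

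Some facts of the libraries bear on all that follows. Atm itself stood at 1978, 1613 and 1519 normalized counts in vector controls 1 to 3, beside 1959, 2220 and 1591 in ATM KO 1 to 3, so its transcript level gave no check of the knockout label, and every direction below is that of the libraries as labelled. Of 10 mammary epithelial markers, 9 were listed, and their summed level ran from 95037 to 126711 in the vector controls and from 117774 to 161844 in ATM KO; the keratins Krt8 and Krt18, Cdh1 and Epcam were present in every library. For immune cells 2 of 10 markers were listed (Cd68 and Csf1r), with sums of 529 to 1467 and 702 to 1774. The fibroblast list had 4 of 8, with sums of 186 to 734 and 393 to 1088, and the endothelial list had 1 of 7 (Cdh5), with sums of 2.10 to 11.7 and 0 to 6.84. The lowest epithelial, immune and fibroblast sums of the vector controls were all in vector control 1, and those of ATM KO all in ATM KO 2; their part in the results below was not tested. Vector controls 2 and 3 were the closest libraries, with a median absolute log2 difference of 0.050 over the members and 0.055 over all tested genes. They still differed beyond counting noise (chi-square of 15 per gene, where sampling alone gives about 1), and they were kept as separate libraries.

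The members differed far more between libraries of the same group than between the groups. Vector control 1 held the highest value of the 6 libraries for 44 of the 45 genes, against 31.9% of all tested genes; the exception was Fbl, which was highest in ATM KO 2. For 40 of 45 the order ran vector control 1, then ATM KO 2, then ATM KO 1, then the other three libraries, an order found for 15.4% of tested genes. Vector control 1 stood at least 2-fold over both other controls for 40 members (11.8% of tested genes) and at least 4-fold over both for 25 (2.34%), and no member (0) was at least 2-fold under them, against 15.2% of tested genes. Within ATM KO, library 2 was at least 2-fold over library 3 for 34 members (10.6% of tested genes) and at least 2-fold under it for 0 (12.4%). These comparisons of single libraries are descriptions with no test. In bulk RNA, fewer cells that express a gene and less of its RNA per cell cannot be told apart.

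Put on a scale of log2 deviation from each gene's own mean over the 6 libraries, the median over the 45 members was 1.38 in vector control 1, 0.79 in ATM KO 2 and 0.01 in ATM KO 1. In vector control 2, vector control 3 and ATM KO 3 it was -0.69, -0.70 and -0.74. Every role took part: the median deviation in vector control 1 ran from 1.20 for the abundant nucleolar proteins to 1.51 for the small subunit factors. The median fold of vector control 1 over the mean of the other controls was 4.34, and it ran from 1.08 for Npm1 to 16.3 for Rrp12. ATM KO 2 over ATM KO 3 had a median fold of 2.99, from 1.27 for Polr1c to 9.33 for Rrp12. The same genes thus spread across both groups, with a median ratio of highest to lowest library of 4.54, beside 1.94 over all tested genes. The highest library was at least 4-fold over the lowest for 30 of 45 (15.4% of tested genes), and with vector control 1 set aside the remaining libraries still spanned at least 4-fold for 15 of 45 (8.82%).

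**Figure D1:**
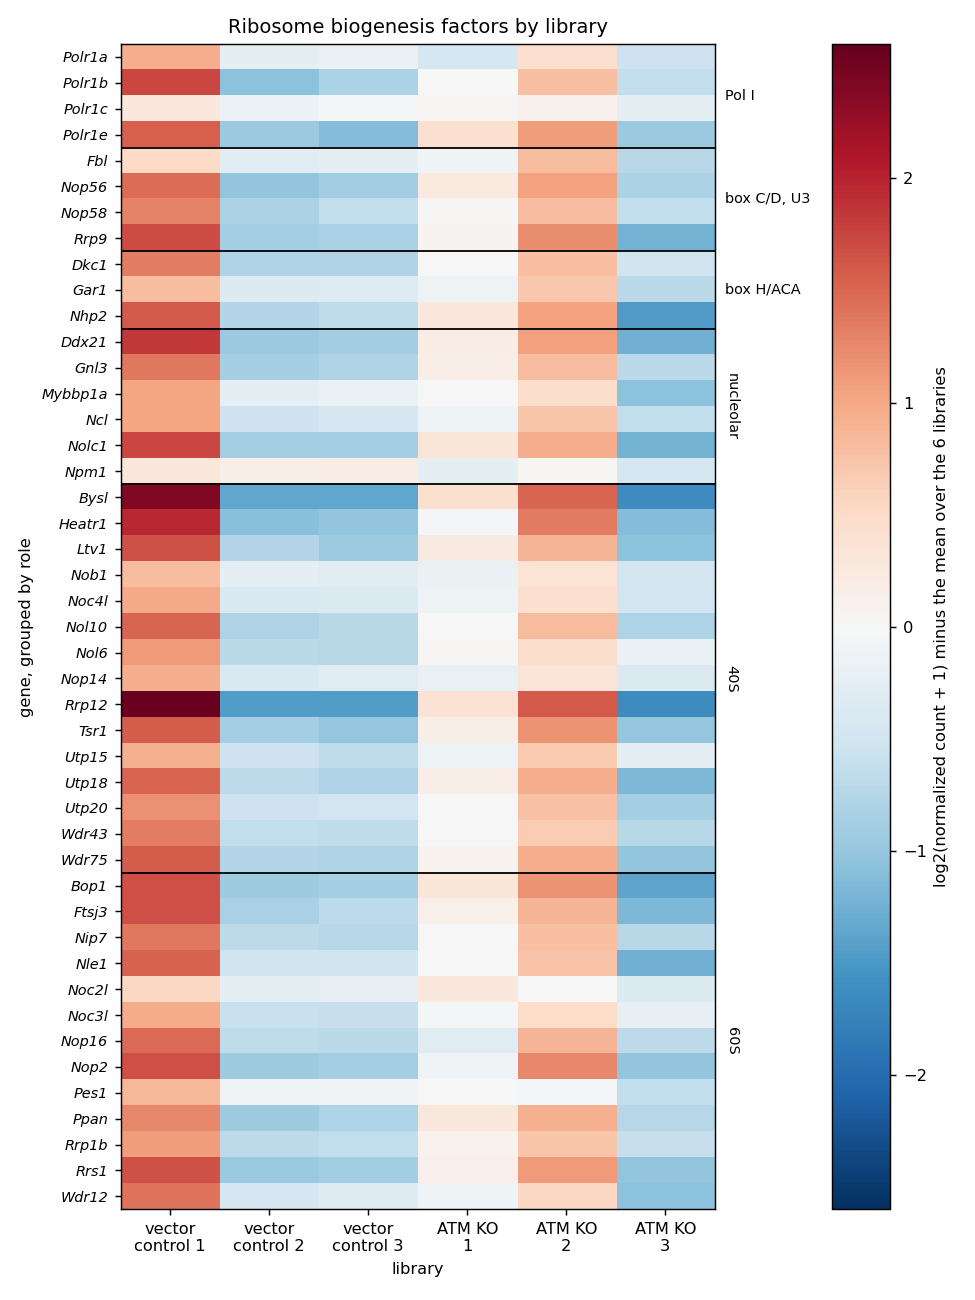
Heat map of the 45 ribosome biogenesis genes (rows, ordered by role) in the 6 libraries (columns); colour gives the log2 deviation of each value from the gene's mean over the libraries. Vector control 1 and ATM KO 2 are high for nearly all rows, with median deviations of 1.38 and 0.79, while Npm1 and Polr1c vary little.

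As a share of all reads, the 45 genes took 1.43% of vector control 1 (95% Wilson interval 1.43 to 1.44) and 1.05% of ATM KO 2 (1.05 to 1.06). They took 0.652% of ATM KO 1 (0.650 to 0.655), 0.484% of vector control 3 (0.482 to 0.487), 0.461% of vector control 2 (0.458 to 0.463) and 0.388% of ATM KO 3 (0.385 to 0.391). These intervals cover counting error only. Ncl alone held between 24.6% and 28.7% of the members' reads, and without it the share in vector control 1 was 1.08%. The order of the libraries by this share was not their order by depth: ATM KO 1 was the most deeply sequenced and vector control 1 came after it and vector control 2.

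RNA polymerase I, whose only task is the ribosomal RNA precursor, was followed through 4 of its subunits. Polr1a (chromosome 6, 71909053 to 71984935, plus strand; GRCm38, as are all coordinates here) encodes the largest, catalytic subunit. It stood at 6969, 3089 and 3198 normalized counts in vector controls 1 to 3, beside 2633, 4897 and 2505 in ATM KO 1 to 3. The groups overlapped, and its log2 difference, ATM KO minus vector control, was -0.36 (SE 0.41). Log2 differences here are between means of log2(value + 1), unless another fit is named. Polr1e, the gene of the PAF53-type subunit (chromosome 4, 45018583 to 45036565, plus strand), held 984, 170 and 151 in the controls beside 448, 710 and 170 in ATM KO. Its log2 difference of 0.36 (SE 0.86) was the highest of the 45, although its highest single library was a control. Polr1b, the second-largest subunit, had 4287, 612 and 731 beside 1287, 2227 and 832. Polr1c, a subunit that RNA polymerase III also uses, was nearly level, at 2293, 1721 and 1853 beside 1943, 2056 and 1619, and its ratio of highest to lowest library, 1.42, was the smallest among the members.

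Box C/D snoRNPs add methyl groups to ribosomal RNA, and U3, one of them, is needed for its first cuts. Nop56 and Nop58 encode the paired core proteins of these particles. Nop56 (chromosome 2, 130274430 to 130279313, plus strand) stood at 8600, 1534 and 1675 in the controls beside 3710, 6465 and 1780 in ATM KO, with a log2 difference of 0.32 (SE 0.78). Nop58 (chromosome 1, 59684971 to 59719044, plus strand) had 9983, 2310 and 2632 beside 4196, 7102 and 2627, with a log2 difference of 0.12 (SE 0.64). In each case vector control 1 and ATM KO 2 stood above the rest of their own group and the groups overlapped. Fbl, the methyltransferase of the particle (chromosome 7, 28169710 to 28179269, plus strand), held 408, 236 and 236 beside 265, 503 and 173, with a log2 difference of 0.01 (SE 0.45). Its level per kilobase of annotated exon, a mean of 72.1 normalized counts, was the lowest of the members, beside 966 for Nop56 and 447 for Nop58, its partners in the particle. That length counts every annotated exon of the gene, 4209 bases for Fbl and 10758 for Nop58, so such levels depend on the annotation. Fbl has close copies in the mouse genome, and the sources used here do not say how reads that match several places were treated, so its level is uncertain. Rrp9, a U3-specific protein, ran from 456 in ATM KO 3 to 3462 in vector control 1.

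Box H/ACA snoRNPs convert uridines to pseudouridines. Dkc1, the pseudouridine synthase (chromosome X, 75095854 to 75109777, plus strand), stood at 6979, 1577 and 1596 in the controls beside 2730, 4730 and 1930 in ATM KO; its log2 difference was 0.17 (SE 0.65). Nhp2, a core protein that binds the RNA (chromosome 11, 51619735 to 51623714, plus strand), had 4804, 945 and 1004 beside 1916, 3300 and 571 and a log2 difference of -0.11 (SE 0.86). Gar1, the core protein that helps product release, spread less, from 962 in ATM KO 3 to 2718 in vector control 1. All 3 followed the same order at the top, vector control 1 over ATM KO 2 over ATM KO 1.

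**Figure D2:**
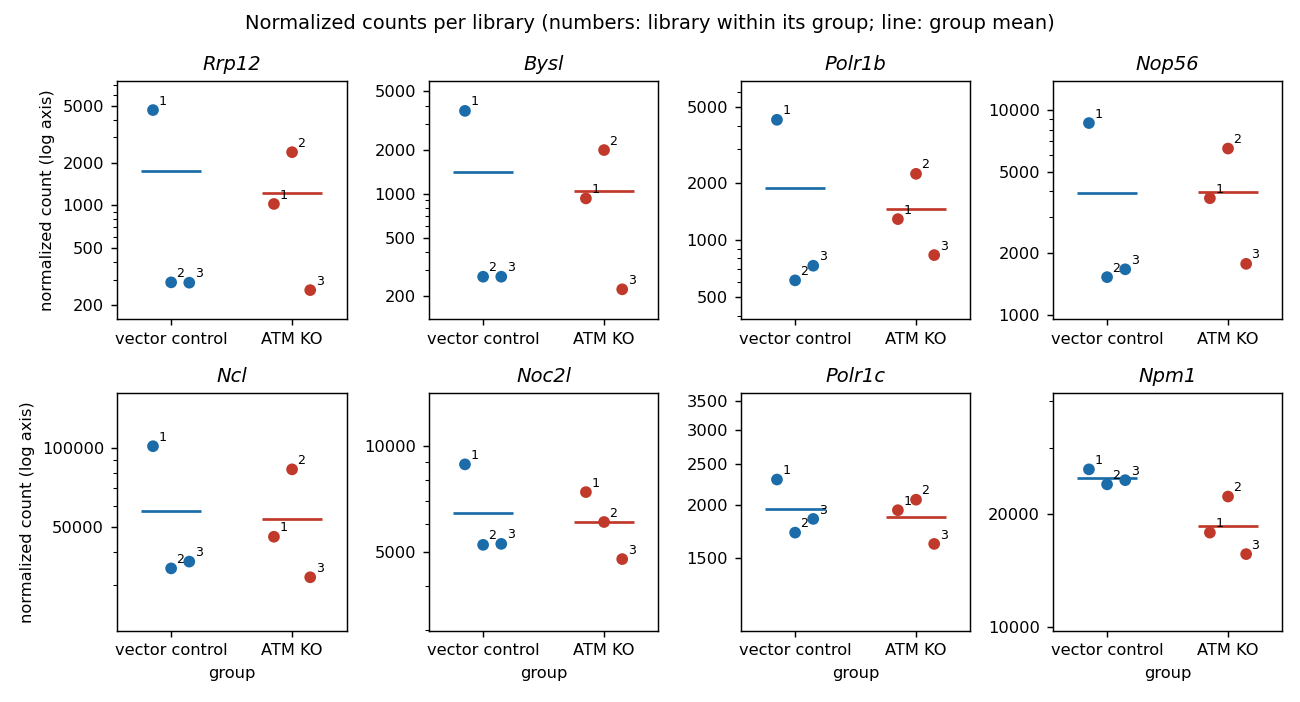
Normalized counts (log axis) of 8 members in each library, by group. Points carry the library number within the group, and lines give group means of the counts, not of their log2 values. For Rrp12, Bysl, Polr1b, Nop56 and Ncl, control 1 and ATM KO 2 lie above the rest of their groups; Polr1c varies 1.42-fold in all, and only for Npm1 do the groups not overlap.

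Among the abundant nucleolar proteins, Ncl (nucleolin, chromosome 1, 86344719 to 86359400, minus strand) had the highest mean of the members. It held 101357, 34679 and 36814 normalized counts in vector controls 1 to 3, beside 45790, 82727 and 32089 in ATM KO 1 to 3. The group means were 57617 ± 37895 and 53535 ± 26193 (SD, n = 3 each). The log2 difference, taken between means of log2 values, was -0.03 (SE 0.52), far inside the spread. Gnl3, nucleostemin, a nucleolar GTP-binding protein (chromosome 14, 31012433 to 31019152, minus strand), had 6495, 1380 and 1450 beside 2802, 4372 and 1537 and a log2 difference of 0.18 (SE 0.69). Ddx21, an RNA helicase that acts on ribosomal RNA and snoRNAs, ran from 3402 in ATM KO 3 to 29057 in vector control 1. The snoRNP chaperone Nolc1 ran from 2027 to 15838 between the same libraries, and Mybbp1a, a nucleolar MYB-binding protein, from 8133 to 34887.

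Npm1, nucleophosmin, the nucleolar chaperone that binds many of these factors (chromosome 11, 33152287 to 33163206, minus strand), spread less than most members. Within each group it kept their usual order, with vector control 1 highest of the controls and ATM KO 2 over ATM KO 1 over ATM KO 3. It stood at 26325, 24013 and 24637 in the controls beside 17863, 22284 and 15658 in ATM KO. Every control library lay above every library labelled ATM KO, and Npm1 was the only 1 of the 45 members whose groups did not overlap, where 11.2% of all tested genes did not overlap in either direction and 5.48% were lower in ATM KO. The means were 24992 ± 1196 and 18602 ± 3374 (SD, n = 3 each). The log2 difference was -0.44 (SE 0.16), which did not pass limma's test after adjustment over all tested genes (unadjusted p = 0.0339, adjusted p = 0.999). By DESeq2 the adjusted p was 0.749. Vector control 1 was 1.08-fold over the other controls, so this difference did not rest on that library: without it the log2 difference was -0.40, and over the fits that left out 1 library at a time it ran from -0.58 to -0.32. Per kilobase of annotated exon Npm1 had the highest mean of the members, 8179 normalized counts. Ncl had 5455, Mybbp1a 3242 and the median member 575. This order depends on the annotated length, 2665 bases for Npm1 and 10188 for Ncl. Before division by length Ncl had the higher mean, 55576 beside 21797 for Npm1. Npm1 has many processed copies in the genome, which makes its level uncertain as for Fbl.

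The small subunit processome and 40S assembly factors held the members that moved most between libraries. Rrp12, needed for the export of 40S precursors (chromosome 19, 41862851 to 41896173, minus strand), stood at 4675, 287 and 286 in the controls beside 1022, 2364 and 253 in ATM KO. Its highest library was 18.4-fold over its lowest, and its log2 difference of 0.22 had an SE of 1.3, the largest of the members. Its mean count went the other way, at 1749 in the controls beside 1213 in ATM KO. Bysl, bystin, which binds late nuclear 40S precursors, gave nearly the same picture, with 3678, 270 and 270 beside 927, 1984 and 221. Heatr1, a large scaffold protein of the processome, had 8075, 984 and 1018 beside 1997, 5291 and 955. These 3 genes thus shared the same libraries at the top and at the bottom.

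The other factors of the set, early and late, spread less than Rrp12, Bysl and Heatr1. Nob1, the nuclease that makes the last cut of the small subunit's RNA (chromosome 8, 107412486 to 107425051, minus strand), had 3458, 1695 and 1661 beside 1764, 2546 and 1442, with a log2 difference of -0.20 (SE 0.36). Wdr43, a processome protein (chromosome 17, 71615895 to 71659031, plus strand), had the highest mean of the set, at 13005, 3316 and 3268 beside 5181, 8185 and 3147, with a log2 difference of -0.03 (SE 0.62). Nol6, also of the processome (chromosome 4, 41114427 to 41124455, minus strand), had 3404, 982 and 969 beside 1618, 2168 and 1418. Here vector control 1 stood apart, and each ATM KO library lay above vector controls 2 and 3. The same held for Utp15 and for members of other sets, such as Nop56 and Dkc1. All 15 genes of the set were highest in vector control 1 and had ATM KO 2 next and ATM KO 1 after it; the other 9 (Ltv1, Noc4l, Nol10, Nop14, Tsr1, Utp15, Utp18, Utp20 and Wdr75) had folds of vector control 1 over the mean of the other controls from 2.48 for Nop14 to 5.71 for Tsr1.

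Among the 60S assembly factors, Pes1, Bop1 and Wdr12 encode the 3 proteins of the PeBoW complex, which matures the large subunit's RNA. Their messages did not spread alike. Bop1 had 5404, 894 and 928 normalized counts in the controls beside 2112, 3810 and 653 in ATM KO, and Wdr12 had 3024, 841 and 891 beside 1042, 1650 and 536. Pes1 (chromosome 11, 3963975 to 3980004, plus strand) had 5734, 2928 and 2939 beside 3120, 3077 and 2025; ATM KO 2 lay just under ATM KO 1 for it, and its log2 difference of -0.45 (SE 0.33) was the lowest of the members. Noc2l, part of the complexes that carry 60S precursors out of the nucleolus (chromosome 4, 156236010 to 156247616, plus strand), had the highest mean of the 60S set and one of the smallest spreads, at 8878, 5238 and 5271 beside 7402, 6084 and 4771 (log2 difference -0.06, SE 0.27). Ppan, a factor of the SSF1 type (chromosome 9, 20888175 to 20892178, plus strand), had 3146, 693 and 758 beside 1621, 2529 and 795 and the highest log2 difference of this set, 0.33 (SE 0.69). Nop2, an RNA methyltransferase of the large subunit, had 7190, 1180 and 1217 beside 2108, 5361 and 1094. The other 7 (Ftsj3, Nip7, Nle1, Noc3l, Nop16, Rrp1b and Rrs1) were all highest in vector control 1 and second in ATM KO 2, with folds over the mean of the other controls from 2.93 for Noc3l to 6.01 for Rrs1.

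Compared as groups, ATM KO against vector control, no member passed the test: limma called 0 of 45, where it called 0 of 12149 genes (0% of those tested), and the adjusted p was 0.999 for each of the 45. edgeR on the recovered reads also called 0 members (0% of tested genes), and DESeq2 called 0 members among 84 genes (0.691% of those tested). At an unadjusted p under 0.05 each of the 3 tools gave 1 member, Npm1, beside 4.16% of tested genes for limma, 4.3% for edgeR and 5.9% for DESeq2. By sign, 26 members had a positive log2 difference and 19 a negative one, and 48.6% of tested genes were positive. By role the positive ones were 2 of 4 RNA polymerase I subunits, 4 of 4 box C/D and U3 proteins, 1 of 3 box H/ACA proteins, 3 of 6 abundant nucleolar proteins, 9 of 15 small subunit factors and 7 of 13 60S factors. The median over the members was 0.01 (-0.01 over all tested genes), with quartiles of -0.09 and 0.15 and a range from -0.45 to 0.36. Their standard errors ran from 0.16 to 1.3 with a median of 0.69, beside a median of 0.29 over all tested genes, so a difference between the groups would have had to be large to be detected for most of them.

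The split by sign depended on single libraries and on the scale. Without vector control 1, 42 of 45 members were higher in ATM KO (49.9% of tested genes) and the median log2 difference was 0.73; without vector control 2 it was 0 of 45, and without vector control 3 or without ATM KO 2 it was 1 of 45. With both high libraries left out, vector control 1 and ATM KO 2, 35 of 45 were positive (49.4% of tested genes) and the median was 0.34. The smallest adjusted p of a member by limma was 0.250 in the first case and 0.164 in the last. edgeR and DESeq2, which compare means of counts and not of log values, gave a positive difference for 5 of 45 each. DESeq2 with vector control 1 left out, a fit chosen after seeing the data, called 541 of 12149 genes and 1 of 45 members. That is a smaller share of the members than of all tested genes, and the library left out was the highest for 44 of 45 members. The member called by this fit, and named here for that reason, was Nol6 (log2 difference 0.84, SE 0.26, adjusted p = 0.0388). With all 6 libraries the DESeq2 log2 difference of Nol6 was -0.04, and limma's was 0.21 (SE 0.51).

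**Figure D3:**
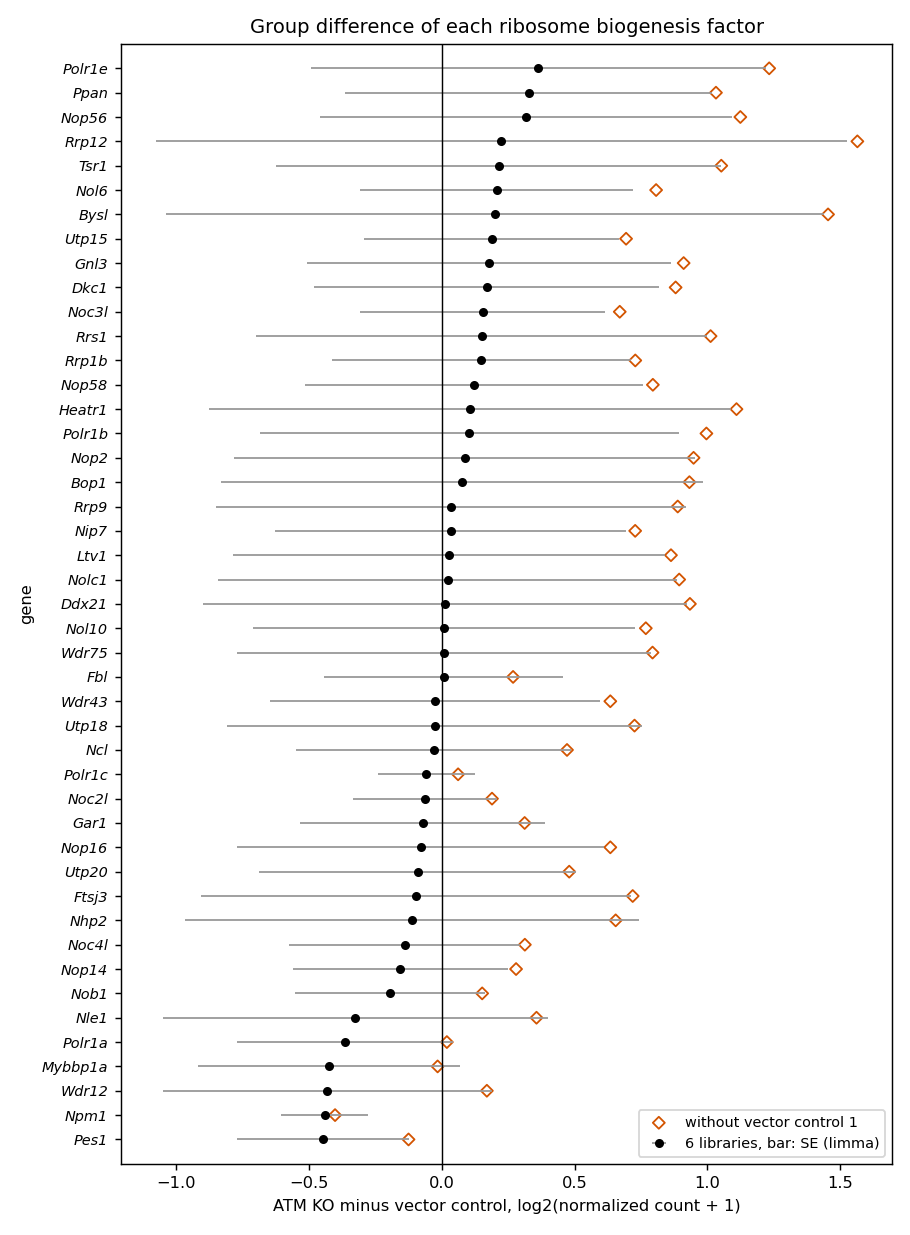
Log2 difference of each of the 45 members, ATM KO minus vector control, on log2(value + 1), with its standard error, fitted over all 6 libraries and again without vector control 1. Over all libraries the points lie between -0.45 and 0.36 around a median of 0.01; without vector control 1 the median is 0.73 and 42 points are positive.

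Some features that the choice of genes did not use were set beside these values. Small nucleolar RNA genes lie on the same strand inside 8 of the 45 (Nop56, Nop58, Ncl, Dkc1, Gnl3, Tsr1, Wdr43 and Ppan), 23 snoRNA genes in all, against 2.17% of tested genes; snoRNAs of this kind are cut from introns of their host. The hosts had a median fold of vector control 1 over the other controls of 4.37, and the 37 other members had 4.24. The span of another annotated gene, introns included and on either strand, overlaps that of 19 of the 45, with small RNA genes left out. Whether exons are shared was not examined, and no source says that strand was used in counting. Reads from any shared exon therefore cannot be told apart from those of the members.

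The E-box CACGTG, the motif that MYC and MAX bind, was looked for because the members moved together. The letters read the same on both strands. Promoters of 39 of the 45 genes were in the RefSeq table (GRCm38.p6). In the 250 bases before the start, 2 of 39 (5.13%) held the motif, beside 6.86% of all genes in the table and 10.2% of the tested ones. In the window from 250 bases before to 50 after the start, a choice made after seeing the data, 9 of 39 (23.1%) held it, beside 8.09% and 12%. A match is a description and shows no binding. The 2 promoters with the motif before the start are given whole, with the motif in capitals, followed by the surroundings of the motif in the 7 genes that hold it just after the start, all 5′ to 3′ on the gene's strand.
Nop2, chr6:125131633-125131882, plus strand: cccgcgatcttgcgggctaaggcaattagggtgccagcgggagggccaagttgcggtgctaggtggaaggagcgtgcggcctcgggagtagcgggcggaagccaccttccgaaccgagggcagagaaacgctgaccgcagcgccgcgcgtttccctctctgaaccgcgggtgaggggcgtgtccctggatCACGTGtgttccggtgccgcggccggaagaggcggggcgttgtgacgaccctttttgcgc
Utp18, chr11:93885767-93886016, minus strand: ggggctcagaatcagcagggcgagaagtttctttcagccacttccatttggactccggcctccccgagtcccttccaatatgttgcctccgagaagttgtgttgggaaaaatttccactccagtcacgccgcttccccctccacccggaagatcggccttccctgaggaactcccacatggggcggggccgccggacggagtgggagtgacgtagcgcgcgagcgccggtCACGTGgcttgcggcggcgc
Ltv1, chr10:13193094-13193119, minus strand: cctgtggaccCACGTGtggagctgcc
Mybbp1a, chr11:72441357-72441376, plus strand: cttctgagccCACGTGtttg
Nle1, chr11:82908357-82908382, minus strand: ggttctcctcCACGTGgggacgcagg
Pes1, chr11:3963967-3963992, plus strand: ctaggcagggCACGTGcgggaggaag
Tsr1, chr11:74898094-74898119, plus strand: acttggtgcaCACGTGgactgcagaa
Utp20, chr10:88826765-88826787, minus strand: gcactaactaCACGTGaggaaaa
Wdr43, chr17:71616222-71616247, plus strand: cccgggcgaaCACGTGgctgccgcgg

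In Nop2 the motif begins 60 bases before the start in the RefSeq table and in Utp18 20 bases before it. In the other 7 it begins 3 to 41 bases after that start. The RefSeq start can differ from the gene coordinates given above, as it does for Wdr43. The 9 genes with the motif had a median fold of vector control 1 over the other controls of 4.14 (range 1.95 for Pes1 to 6.0 for Nop2), and the 30 without it had 4.37.

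The rest of the pathway was followed through 127 other symbols, of which 117 were listed and tested. None (0) passed the test between the groups by limma, edgeR or DESeq2, and none (0) had an unadjusted p under 0.05 by any of these; 37 had a positive and 80 a negative log2 difference, with a median of -0.06. Their median deviations followed the members' order with smaller size, at 0.83 in vector control 1, -0.38 and -0.32 in vector controls 2 and 3, and -0.03, 0.43 and -0.49 in ATM KO 1 to 3. Vector control 1 was at least 2-fold over both other controls for 66 of 117. Upward the largest differences were those of Mphosph10 (0.60, SE 0.94) and Utp14a (0.58, SE 0.36), both of the processome, and Nol9 (0.53, SE 0.74), a polynucleotide kinase of 60S maturation. Downward they were those of the helicase Ddx56 (-0.40, SE 0.42) and of Ruvbl2 (-0.38, SE 0.18) and Ruvbl1 (-0.34, SE 0.33), the ATPases that help assemble snoRNPs. The groups did not overlap for 1 gene that was higher in ATM KO, the exosome nuclease Exosc10, and for 3 that were lower, Ruvbl2, Tsr3 and Eftud1, fewer in share than the 11.2% of all tested genes without overlap.

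Genes of the ribosome itself had smaller median deviations than the members. The median deviations of 75 tested genes with symbols of cytosolic ribosomal proteins were 0.12, 0.04 and 0.13 in vector controls 1 to 3, beside -0.12, 0.05 and -0.22 in ATM KO 1 to 3, with a median ratio of highest to lowest library of 1.6 where the members had 4.54 and all tested genes 1.94. Single genes of this list spread more: for 9 the highest library was at least 4-fold over the lowest (15.4% of tested genes), with a largest ratio of 9.34, and vector control 1 was at least 2-fold over both other controls for 13 of 75 (11.8% of tested genes). For 13 of the 75 every ATM KO library lay below every control, beside 5.48% of all tested genes, and for 1 every ATM KO library lay above. In either direction 11.2% of all tested genes did not overlap. Tested by limma, edgeR and DESeq2, 0 of the list were called. Many ribosomal protein genes have processed copies, so their counts are uncertain. For 74 mitochondrial ribosomal protein genes the deviations were 0.51, -0.12 and -0.12 beside -0.04, 0.29 and -0.44, the members' order again with smaller size, and the median ratio of highest to lowest library was 1.98.

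**Figure D4:**
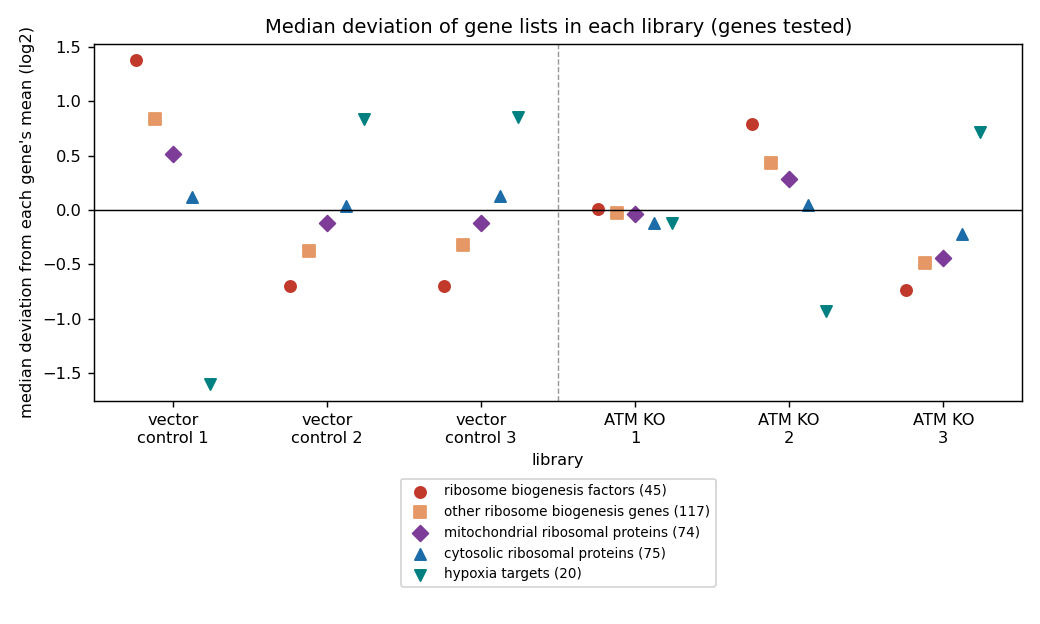
Median log2 deviation from each gene's own mean over the 6 libraries, per library, for the 45 members and 4 other gene lists, with the number of tested genes in each. The members run from 1.38 in vector control 1 to -0.74 in ATM KO 3, cytosolic ribosomal protein genes stay between -0.22 and 0.13, and hypoxia targets run the opposite way, from -1.60 in vector control 1 to 0.85 in vector control 3.

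Most of the hypoxia targets, genes that the oxygen-sensing HIF factors switch on, moved against the members. Over the 20 on the list the median deviations were -1.60, 0.84 and 0.85 in vector controls 1 to 3, beside -0.12, -0.93 and 0.72 in ATM KO 1 to 3. Car9, a carbonic anhydrase with the widest spread of the list, stood at 143, 10243 and 10169 in the controls beside 5159, 1208 and 21223 in ATM KO. Pfkfb3 went with the members instead, at 738, 156 and 148 beside 496, 430 and 124. By these medians, the libraries with the highest biogenesis messages were those with the lowest hypoxia messages, in both groups. The part of this in the members' values was not tested.

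Myc, whose protein is a known activator of biogenesis genes, stood at 14046, 9221 and 8965 in the controls beside 12867, 14119 and 6801 in ATM KO, a log2 difference of 0.03 (SE 0.33). It was high in vector control 1 and ATM KO 2, where the members were high, and also in ATM KO 1, where the members' median deviation was 0.01; its highest value was 2.08 times its lowest. Max, the partner of MYC on DNA, had 2489, 1121 and 1196 beside 1490, 2342 and 1211. Most of the MAX-binding repressors on the list ran the other way. Mxi1 had 936, 6485 and 6374 beside 3709, 1649 and 5730, and Mxd1 had 112, 566 and 578 beside 382, 169 and 921. Mxd4 had 173, 872 and 818 beside 806, 378 and 1436 and Mnt 1190, 2556 and 2477 beside 2227, 1578 and 2359. Each of these 4 repressor genes was lowest in vector control 1 and second lowest in ATM KO 2. Mxd3 and Mga varied little, with ratios of highest to lowest library of 1.49 and 1.23. Within that small spread Mxd3 was also lowest in vector control 1 and second lowest in ATM KO 2. Mga was lowest in vector control 1 and second lowest in ATM KO 1. Whether these levels bear on the members was not tested.

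**Figure D5:**
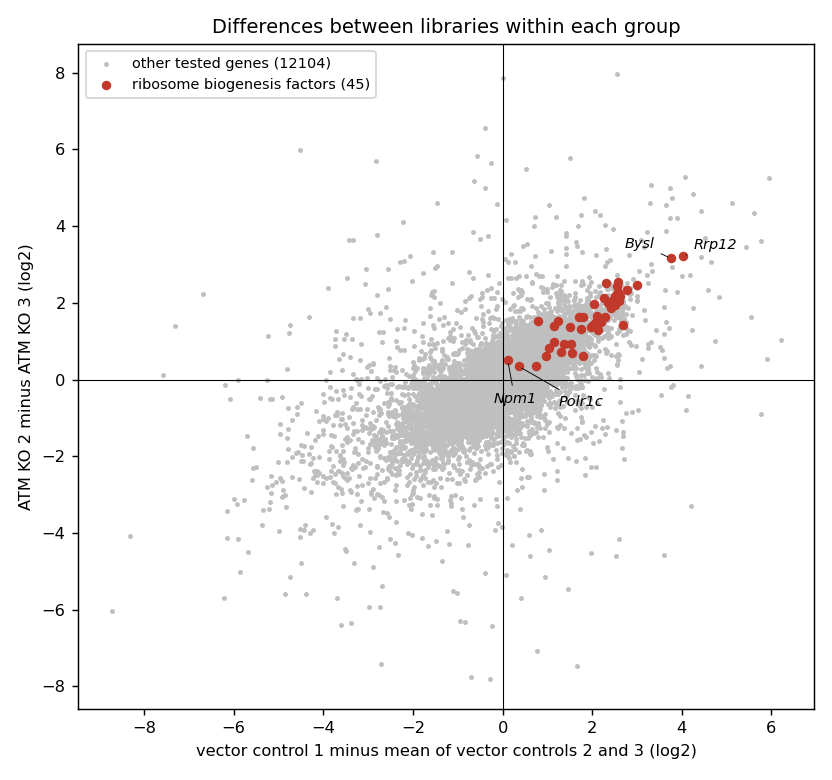
Difference between libraries of the same group for every tested gene (log2): vector control 1 minus the mean of vector controls 2 and 3 on the horizontal axis, ATM KO 2 minus ATM KO 3 on the vertical axis; the 45 members are in red and the 12104 other genes in grey. All 45 members lie above 0 on both axes, with Rrp12 and Bysl farthest out and Npm1 and Polr1c close to the origin.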

How the data were processed

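RNA was sequenced from 6 samples, grouped by their titles. Tools named in the submitters' processing notes are STAR, HTSeq, SAMtools, DESeq2, Trim Galore and cutadapt, and the builds are GRCm38 and mm9, with no version or role. What the authors deposited is a normalized signal: reads per gene over a single factor for each library, as read from the values, of which 100% were whole multiples of a fixed step within 0.01 reads, which gave the reads back. Such values are relative within a library and do not show a change in total RNA per cell. Of the listed gene IDs, 98.8% were in GENCODE M21 on GRCm38, which gave coordinates and exon lengths.

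The 45 members, the gene lists and the tests were chosen with earlier results of these data known. The test was limma 3.58.1 in R 4.3.3 on log2(value + 1), which understates changes of low genes, with a mean-variance trend, 2-sided, over the 12149 genes with a mean of at least 10, with Benjamini-Hochberg adjustment and a threshold of 0.05. Alternatives were edgeR 4.0.16 (quasi-likelihood; 0 genes called) and DESeq2 1.42.0 (84 genes called) on the recovered reads, pseudocounts of 0.5 and 5, no filter or a mean of 100, CPM and TMM scaling, a replicate block and leaving out each library. The scripts were tested on simulated data. Members with full values were, per role, those with the highest mean and the largest and smallest difference, and those called or without overlap between groups; other members were given for their role.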

Additional observations from a re-analysis of the deposited data

How the results depend on the processing

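The number of genes called was 0 by limma under each of its alternatives, 84 by DESeq2 and 541 by DESeq2 with vector control 1 left out, which also called 1 member where all other fits called 0. The titles do not say whether replicate numbers pair the samples. Correlations of same-numbered deviations from the group means were -0.02, -0.58 and 0.53. They cannot decide it, since with 3 libraries a group 1 outlying library weighs on each of them. With the replicate block limma called 0 genes, with a smallest adjusted p of 0.9999 for a member. The count of members higher in ATM KO, 26, was 5 by edgeR, 5 by DESeq2 and 43 by DESeq2 with vector control 1 left out, and 0 to 42 over the fits that left out 1 library. Over those fits the median log2 difference ran from -0.40 to 0.73. Of the 17 genes followed singly, Npm1 (-0.58 to -0.32) and Pes1 (-0.61 to -0.13) kept their direction in all of those fits. The ranges that changed sign were Polr1a -0.67 to 0.019, Polr1e -0.11 to 1.23, Nop58 -0.26 to 0.79, Nop56 -0.13 to 1.12, Fbl -0.40 to 0.37, Dkc1 -0.19 to 0.88, Nhp2 -0.66 to 0.65, Ncl -0.40 to 0.47, Gnl3 -0.21 to 0.91, Wdr43 -0.37 to 0.63, Rrp12 -0.51 to 1.56, Nob1 -0.42 to 0.15, Noc2l -0.22 to 0.19, Ppan -0.058 to 1.03 and Nol6 -0.10 to 0.81. CPM scaling turned Ncl (0.0061) and Wdr43 (0.010). edgeR turned Nop58 (-0.10), Dkc1 (-0.11), Gnl3 (-0.10), Rrp12 (-0.52) and Nol6 (-0.042), and DESeq2 turned the same genes (-0.10, -0.11, -0.10, -0.53 and -0.041). Without vector control 1 and ATM KO 2, Fbl (-0.14), Nhp2 (0.10), Ncl (0.10), Wdr43 (0.29) and Noc2l (0.18) turned. DESeq2 with vector control 1 left out turned Polr1a (0.10), Nhp2 (0.99), Ncl (0.59), Wdr43 (0.75), Nob1 (0.20) and Noc2l (0.21) and called Nol6 (0.84). Both alternatives that leave out high libraries were chosen after seeing the data, and the cause of these changes was not tested beyond the libraries left out. With 3 libraries a group and this spread, small differences were not detectable. The lowest value of a member in any library was 151 normalized counts; a limit from depth was not tested.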
